A study of Mus musculus with 5 samples.

Results

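Distal convoluted tubule (DCT) cells were 796 of the 60043 cell barcodes kept from 5 single-cell RNA libraries of mouse kidney. Members were selected on measured values. A barcode was kept with at most 30% of its unique molecular identifiers (UMIs, counts of individual RNA molecules) from mitochondrial genes and at least 200 genes. A member then had to carry at least 3 UMIs of Slc12a3, the thiazide-sensitive NaCl cotransporter that defines the segment, and at least 10 per 10000 UMIs. Slc12a3 also had to exceed Slc12a1, the cotransporter of the thick ascending limb (TAL), and the sum of Slc8a1 and Trpv5, which mark the connecting tubule, and Ptprc, the pan-leukocyte gene CD45, had to be at 0. The study followed kidneys from an acute injury phase (AKI) into a chronic disease phase (CKD) in Wild-Type C57BL/6 mice, all males that were 8 to 10 weeks of age. Mice in the AKI group had received aristolochic acid I (AAI, a plant nephrotoxin that forms DNA adducts) at 3 mg/kg every 3 days up to week 2. CKD mice had the same course and were taken at week 4, after the injections had been stopped, and the control had received vehicle. There were 1 control, 2 AKI and 2 CKD libraries, and the members numbered 460 in the control, 80 and 44 in the AKI libraries and 193 and 19 in the CKD libraries (1 and 2 of each).

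The DCT is a short segment between the TAL and the connecting tubule. It reabsorbs NaCl through Slc12a3 under the control of the WNK kinases, takes up magnesium through channels containing Trpm6, and in its late part moves calcium with the help of the calcium-binding protein calbindin (Calb1). The early part of the segment in mice is known for parvalbumin (Pvalb), and the segment as a whole is rich in mitochondria and is a known source of epidermal growth factor (Egf) in the kidney.

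The label was checked with Slc12a3, which chose the cells, and with Pvalb and Trpm6, which did not. Slc12a3 stood at 81.8 per 10000 UMIs in the control members, 42.8 and 51.4 in the AKI libraries and 39.1 and 46.3 in the CKD libraries, and these levels are a description only. In T lymphocytes, which should lack it and were taken here as barcodes with Ptprc and at least 2 CD3 UMIs, it stood between 0.0779 and 2.38 per 10000. At the threshold, 35, 4, 4, 30 and 2 members (control, AKI 1, AKI 2, CKD 1, CKD 2) had exactly 3 UMIs of Slc12a3, and 78, 9, 6, 42 and 2 barcodes just outside had 2. The median member held 47.5, 23, 32.5, 9 and 32 UMIs of Slc12a3 in the same order, the lowest being CKD 1. Per 10000 UMIs the medians were 86.0, 56.1, 43.5, 26.8 and 51.7. A stricter rule of 5 UMIs and 20 per 10000 kept 393, 66, 33, 108 and 14 members. Slc8a1, used as an upper bound, stood at 8.69 per 10000 in the control and between 1.85 and 5.09 in the other libraries. At least 1 UMI of Trpm6 was found in 266 of 460 control members, 31 of 80 and 22 of 44 AKI members, and 58 of 193 and 6 of 19 CKD members. Pvalb was found in 249 of 460 control members, but in 3, 2, 30 and 3 members of AKI 1, AKI 2, CKD 1 and CKD 2. After AAI the label thus rested on Slc12a3 and, in part of the members, on Trpm6. In the injured libraries Trpm6 stood at 0.978 to 1.55 per 10000 in DCT cells and 0.0320 to 0.126 in TAL cells.

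DCT cells made up 5.02% of the kept barcodes in the control (exact 95% binomial interval 4.58 to 5.48%). Their share was 0.714% (0.567 to 0.888%) in AKI 1, 0.405% (0.295 to 0.544%) in AKI 2, 0.999% (0.864 to 1.15%) in CKD 1 and 0.200% (0.120 to 0.312%) in CKD 2. The control share was the highest, and the 2 CKD libraries lay on either side of both AKI libraries. Among barcodes without Ptprc, the shares were 7.33%, 2.58%, 1.63%, 2.16% and 1.29% in the same order. Of the DCT and TAL cells together, DCT cells were 39.8% in the control, 35.7% and 34.6% in AKI and 21% and 20.9% in CKD. The intervals cover counting error only, and digestion of the tissue, the filter on mitochondrial UMIs and the Slc12a3 threshold all set these shares. Differences in share between groups were not tested.

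The 19 to 460 members of each library held 153354 to 3283830 UMIs in all, with median depths of 2904 to 5159.5 UMIs and 1114 to 1710.5 genes per cell. The median mitochondrial share was 20.3% in control members and 6.84% to 14.1% in the others. The limit on mitochondrial UMIs removed 38.7% of the deposited control barcodes and 11.1% to 12.7% of those in the other libraries. CKD 1 stood apart by transcripts of other cells. Its members carried 9.29 UMIs per 10000 summed over 14 T lymphocyte genes against 0.478 to 2.13 in the other libraries, and none of the 14 genes was at 0. Over 12 macrophage genes, CKD 1 members carried 17.7 per 10000 with no gene at 0, the control 2.31, AKI 3.22 and 6.13, and CKD 2 1.24. Over 14 proximal tubule genes they carried 30.4 per 10000 with no gene at 0, against 18.7 in the control, 7.68 to 9.36 in AKI and 4.96 in CKD 2. The 9 connecting tubule and collecting duct genes summed to 8.03 per 10000 in the control and to 0.391 to 2.15 in the other libraries. The 8 fibroblast genes summed to 2.90 in the control and to 0.0652 to 0.125 elsewhere, where 4 to 7 of them were at 0, and the 8 endothelial genes to 2.57 and to 0.3 to 1.08. The 5 TAL genes ranged only from 3.00 to 6.33. How far these transcripts came from doublets, free RNA or the members themselves was not tested. Of the barcodes that libraries share, 5 control members, 1 AKI 1 member and 2 CKD 1 members had more UMIs under the same barcode in another library.

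**Figure D1:**
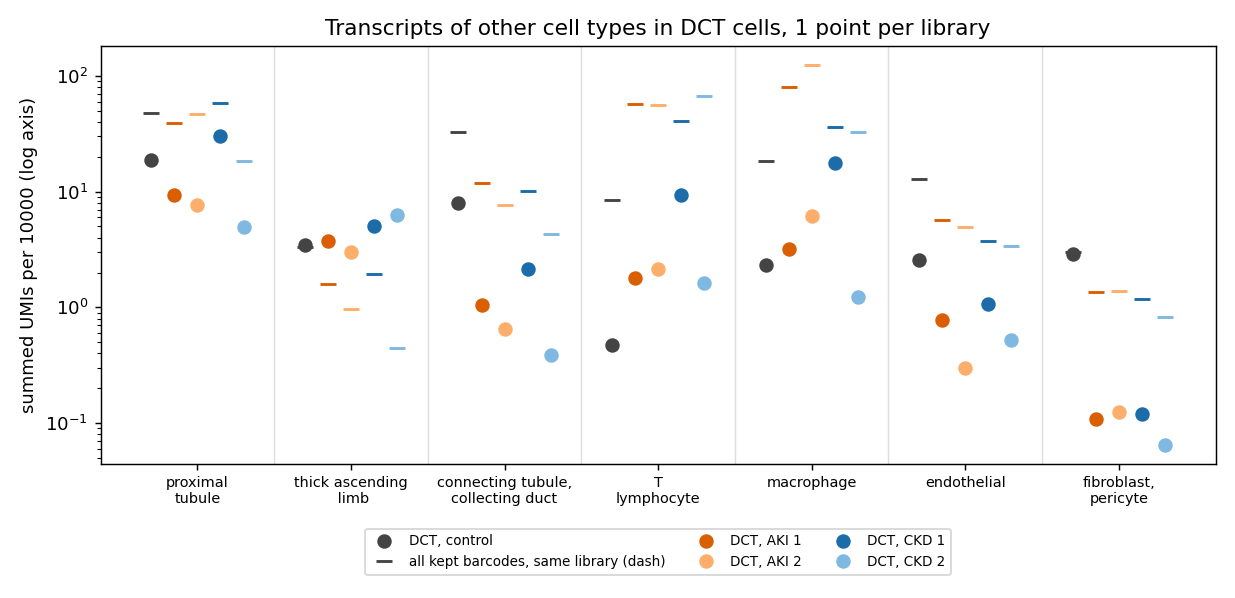
Summed UMIs per 10000 (log axis) of 7 lists of marker genes of other cells in the DCT cells of each library, with a dash for all kept barcodes of the same library. The T lymphocyte sum of CKD 1, at 9.29, stands above the 0.478 to 2.13 of the other libraries, and the fibroblast sum of 2.90 is highest in the control.

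To compare the groups, UMIs were summed over the members of each library and tested with edgeR's quasi-likelihood model, with Benjamini-Hochberg adjusted p-values over all genes, and a gene is said to rise or fall where its adjusted p was under 0.05. The lone control was assumed to vary like the AKI and CKD libraries, which give the spread. AKI against control and CKD against control share that 1 control library. Nothing in the labels says that samples of a group came from separate animals, so the p-values measure the spread between these samples, which may be technical. The sums cannot tell fewer expressing cells from less RNA per cell. Of 9611 genes tested, 606 (6.31%) were called in AKI against control, 367 (3.82%) higher and 239 (2.49%) lower. In CKD against control 340 (3.54%) were called, 269 (2.8%) higher and 71 (0.739%) lower. CKD 2, with 19 members, was under the set minimum of 20 for the comparison of CKD with AKI, which therefore rested on AKI 1, AKI 2 and CKD 1 and called 507 of 8901 genes (5.7%), 324 higher (3.64%) and 183 lower (2.06%). With CKD 2 included it called 35, so the calls from this comparison are given below with whether they held when CKD 2 was added. Groups of libraries did not overlap for 71.6%, 62.5% and 71.3% of the genes tested in the 3 comparisons, so that separation alone marks nothing about a gene. Counts of calls also depend on 1 library. List counts given below without a library belong beside the totals of that fit, and not beside the background of the main fit. AKI against control called 303 genes without AKI 1, 328 without AKI 2, 1077 without CKD 1 and 1349 without CKD 2, and CKD against control 298, 299, 177 and 957.

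A few genes that regulate the cotransporter or its hormone response fell after AAI. Of 14 genes of the NaCl cotransporter list other than Slc12a3 itself, 3 fell in AKI against control (background 2.49% lower), namely Wnk1, Klhl3 and Ppp1r1a, and none rose, with a median log2 fold change of -0.55 against -0.0032 over all genes. In CKD against control Wnk1, Klhl3 and Hsd11b2 fell (background 0.739% lower), with a median of -0.64 against -0.015. The AKI count was 5 without CKD 1 or without CKD 2, and the CKD count was 5 without CKD 2 and 2 without CKD 1.

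Wnk1, a kinase upstream of SPAK whose short kidney form is abundant in the DCT, stood at 30.9 UMIs per 10000 in the control, 8.98 and 9.81 in AKI and 12.6 and 16.1 in CKD. Its log2 fold change was -1.71 (SE 0.29, adjusted p = 0.000323) in AKI and -1.09 (SE 0.29, adjusted p = 0.0307) in CKD against control. The control was the highest library for Wnk1 and the AKI pair the lowest, although the CKD call was lost without CKD 1 (-0.93, adjusted p = 0.0747) and the AKI call with cells thinned to at most 2000 UMIs (-1.45, adjusted p = 0.0711). Klhl3, the adaptor that delivers WNK kinases to a ubiquitin ligase, stood at 6.17 in the control, 1.18 and 1.30 in AKI and 1.52 and 2.22 in CKD. Klhl3 fell by 2.32 on the log2 scale in AKI (SE 0.31, adjusted p = 2.46e-05) and by 1.77 in CKD (SE 0.32, adjusted p = 0.00124), and all 4 injured libraries lay below the control. With the mitochondrial limit at 15% its CKD call was lost (-1.28, adjusted p = 0.296). Ppp1r1a, which encodes an inhibitor of protein phosphatase 1 and is abundant in the DCT, stood at 9.21, then 3.85 and 4.76 in AKI and 4.99 and 5.54 in CKD. Ppp1r1a fell in AKI (-1.09, SE 0.30, adjusted p = 0.0267), a call lost without AKI 1 (-0.91, adjusted p = 0.365) or AKI 2 (-1.32, adjusted p = 0.0816), and its CKD value of -0.79 did not pass (adjusted p = 0.199).

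Other kinases of this chain did not pass the test. Wnk4, the kinase that acts on the cotransporter in the DCT, stood at 4.74 per 10000 in the control, 3.08 and 2.83 in AKI and 2.55 and 3.98 in CKD (AKI -0.68, adjusted p = 0.262). Stk39, which encodes the SPAK kinase downstream of the WNKs, was at 1.12, then 0.745 and 0.851, then 0.738 and 1.11. For both genes CKD 2 lay nearer the control than the other injured libraries did. Hsd11b2, the enzyme that keeps glucocorticoids from the mineralocorticoid receptor, stood at 2.35 per 10000 in the control, 1.64 and 1.6 in AKI and 0.673 and 0.130 in CKD, where CKD 2 held 2 UMIs of it. It fell in CKD against control (-2.10, SE 0.39, adjusted p = 0.00177), but it stood higher in the control's T lymphocytes, at 2.66, and proximal tubule cells, at 3.35, than in its DCT cells. Without members that carry markers of other cells its CKD value was 0.33.

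**Figure D2:**
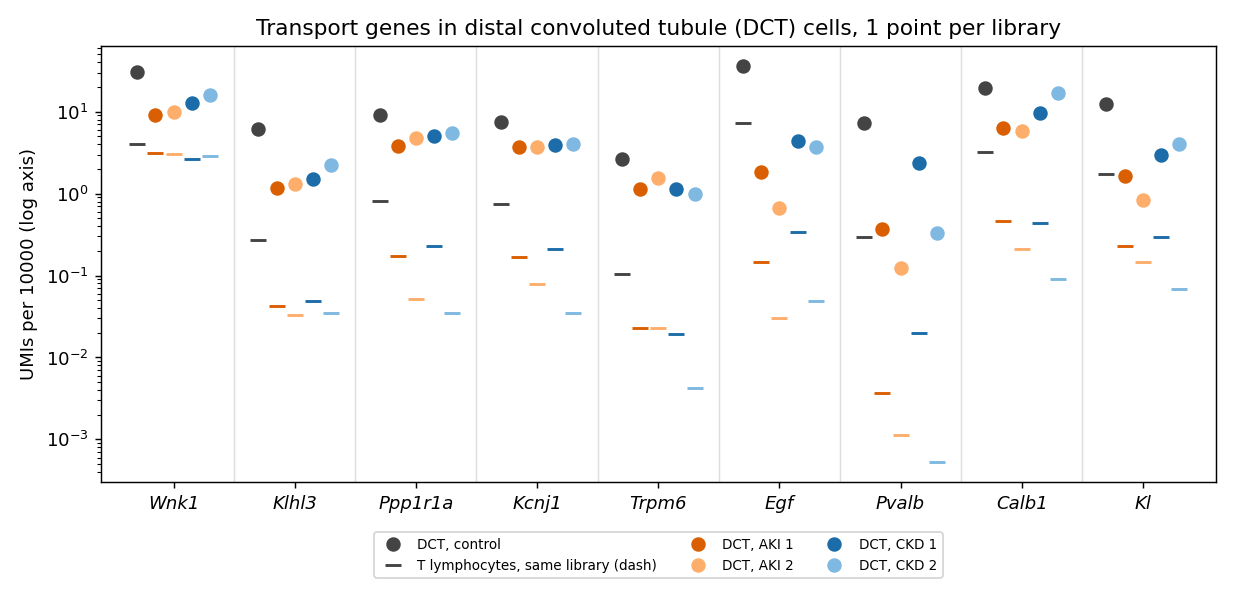
UMIs per 10000 (log axis) of 9 DCT transport and hormone genes in the DCT cells of each library, 1 point per library, with a dash for T lymphocytes of the same library. For each of the 9 genes all 4 injured libraries lie below the control. Groups did not overlap for 71.6% of all genes tested in AKI against control and 62.5% in CKD against control.

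The potassium channels and sodium pump had few calls. Of 12 genes of the potassium, chloride and sodium pump list, Kcnj1 alone fell in AKI (background 2.49% lower), none was called in CKD, and the medians were -0.34 and -0.55. The AKI count was 0 without AKI 1 or AKI 2, 3 without CKD 1 and 4 without CKD 2, and the CKD count 1 without CKD 1 and 3 without CKD 2. Kcnj1 (ROMK), the apical potassium channel, stood at 7.47 per 10000 in the control, 3.72 and 3.65 in AKI and 3.97 and 4.04 in CKD. Its AKI value of -1.01 (SE 0.29, adjusted p = 0.0372) was not called without AKI 1 (-0.99, adjusted p = 0.321) or AKI 2 (-1.07, adjusted p = 0.287), and in CKD it was -0.87 (adjusted p = 0.127). For Kcnj1 the 4 injured libraries lay close together, below the control. Kcnj10, the basolateral potassium channel that sets the membrane voltage of the segment, stood at 2.04, then 1.13 and 0.926, then 1.26 and 0.783 (AKI -0.98, adjusted p = 0.0786), and its partner Kcnj16 at 3.04, then 2.91 and 3.15, then 2.31 and 1.96.

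Atp1b1, the beta subunit of the sodium pump, ranged from 41.7 to 53.6 and Fxyd2, the small regulatory subunit, from 70.5 to 82.9 over the 5 libraries. Kcnma1 and Kcna1, potassium channels reported in distal tubules, had no UMI in any member.

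Magnesium handling differed between its genes. Of 12 magnesium genes tested, Egf alone fell in AKI (background 2.49% lower), and Egf and Trpm6 fell in CKD (background 0.739% lower), with medians of -0.72 and -0.46. The AKI count was 4 without CKD 1 or CKD 2, and the CKD count was 1 without AKI 1, AKI 2 or CKD 1. Egf, a growth factor made by the distal tubule that also stimulates Trpm6, stood at 36.3 per 10000 in the control, 1.85 and 0.676 in AKI and 4.42 and 3.72 in CKD. Egf fell by 4.81 on the log2 scale in AKI (SE 0.37, adjusted p = 5.67e-09) and by 3.11 in CKD (SE 0.35, adjusted p = 4.87e-06). The injured libraries did not overlap the control and the CKD pair lay above the AKI pair. The raw UMIs behind these levels were 11926 in the control, 169 and 27 in AKI, and 479 and 57 in CKD. In T lymphocytes of the same libraries Egf stood at 7.24 in the control and between 0.0301 and 0.341 in the others, below the DCT level in each library. In TAL cells it stood at 110 per 10000 in the control, 4.13 and 4.44 in AKI and 9.11 and 6.40 in CKD.

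Trpm6, the channel for apical magnesium entry, stood at 2.63 per 10000 in the control, 1.15 and 1.55 in AKI and 1.14 and 0.978 in CKD. Its log2 fold change was -0.98 in AKI (adjusted p = 0.08) and -1.24 in CKD (SE 0.34, adjusted p = 0.0391). The CKD call did not hold without AKI 1 (adjusted p = 0.0665), AKI 2 (adjusted p = 0.103) or CKD 1 (adjusted p = 0.0821), although each of these fits kept a lower value in CKD. Trpm7, its close relative, stood at 4.63, then 3.31 and 3.33, then 2.69 and 5.09, with CKD 2 above the control. Cnnm2, a basolateral protein of magnesium transport, stood at 1.69, then 0.822 and 0.876, then 1.06 and 1.17 (AKI -1.0, adjusted p = 0.0608).

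Genes that mark the early part of the segment gave a split picture. Of the 6 early DCT genes, Egf, Pvalb and Slc16a7 fell and Erbb4 rose in AKI (background 2.49% lower and 3.82% higher), and those 3 and Trpm6 fell in CKD (background 0.739% lower), with medians of -1.46 and -1.21. Without AKI 2 the CKD count was 2. Pvalb, a calcium-binding protein of the early DCT, stood at 7.30 per 10000 in the control (2398 UMIs), 0.372 and 0.125 in AKI (34 and 5 UMIs) and 2.38 and 0.326 in CKD (258 and 5 UMIs). Pvalb fell by 4.73 on the log2 scale in AKI (SE 0.52, adjusted p = 1.64e-06) and by 2.12 in CKD (SE 0.46, adjusted p = 0.00674), with CKD 1 between the control and the other 3. By DESeq2 neither Pvalb value was called, at -4.87 (adjusted p = 0.0936) in AKI and -2.34 (adjusted p = 1.00) in CKD. Slc16a7, a monocarboxylate transporter, stood at 6.92, then 1.86 and 1.75, then 3.17 and 2.67. It fell in AKI (-1.93, SE 0.30, adjusted p = 0.000141) and in CKD (-1.19, SE 0.30, adjusted p = 0.0232), the latter call being lost without AKI 2 (-1.20, adjusted p = 0.065). Umod, best known as the main secreted protein of the TAL, did not change against control, at 50.5, then 51.2 and 27.5, then 75.1 and 64.9, and stood at 120 to 161 per 10000 in TAL cells. Erbb4, a receptor of EGF family ligands, had few UMIs, at 0.116 per 10000 in the control, 0.405 and 0.225 in AKI and 0.194 and 0.196 in CKD. Its rise in AKI (1.51, adjusted p = 0.0414) was lost without AKI 1 (1.00, adjusted p = 0.855) or AKI 2 (1.74, adjusted p = 0.0937).

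Among 8 calcium genes tested, Calb1, Pvalb and Kl fell in AKI, and Pvalb and Kl in CKD, with medians of -0.60 and -0.62, and without CKD 2 the CKD count was 4. The background of lower calls was 2.49% in AKI and 0.739% in CKD. Kl, which encodes Klotho, the co-receptor of the phosphate hormone FGF23, stood at 12.4 per 10000 in the control, 1.63 and 0.826 in AKI and 3.00 and 3.98 in CKD, and in AKI 2 it stood higher in proximal tubule cells, at 1.75. Kl fell by 3.31 on the log2 scale in AKI (SE 0.33, adjusted p = 4.73e-07) and by 1.84 in CKD (SE 0.33, adjusted p = 0.00102). All injured libraries lay below the control for Kl, and both CKD libraries lay above both AKI libraries. With the mitochondrial limit at 15% its CKD value was -1.42 (adjusted p = 0.199). Calb1, the calcium carrier of the late segment, stood at 19.6 in the control, 6.29 and 5.88 in AKI and 9.60 and 17 in CKD. Calb1 fell in AKI (-1.69, SE 0.31, adjusted p = 0.000761), and in CKD its value of -0.57 did not pass (adjusted p = 0.452) with CKD 2 close to the control. S100g, the small calbindin, stood at 40.2, then 28.7 and 31.6, then 13.7 and 47.3, so that the 2 CKD libraries were the lowest and the highest of the 5. The summed markers of connecting tubule and collecting duct cells, given above, were also highest in the control, and the part of late DCT or connecting tubule cells in these values was not tested.

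Of the 6 genes of the epithelial sodium channel list none was called in AKI or CKD against control, with medians of 0.44 and 0.21. Without CKD 1 or without CKD 2 some of the 6 passed in AKI, where calls over all genes also increased. The AKI medians of the list were then 0.43 and 0.44. Scnn1a, the alpha subunit, stood at 2.74 per 10000 in the control, 1.76 and 1.33 in AKI and 1.51 and 1.5 in CKD (AKI -0.82, adjusted p = 0.139). Scnn1b, the beta subunit, stood at 0.502, then 0.931 and 1.15, then 0.470 and 0.652 (AKI 1.03, adjusted p = 0.0712), with 0.506 in control proximal tubule cells. The alpha and beta subunits thus lay on opposite sides of the control in AKI, in both cases without passing the test. Tmprss2, a serine protease of the apical membrane, stood at 1.03, then 1.85 and 2.00, then 0.978 and 1.96 (AKI 0.91, adjusted p = 0.167).

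Few of the 15 transcription factors tested were called, beside a background of 3.82% higher and 2.49% lower in AKI. Pax8, a nephron identity factor, was the single call against control, with 0.204 per 10000 in the control, 0.657 and 0.425 in AKI and 0.194 and 0.196 in CKD. Without CKD 1 the AKI count was 1 higher and 2 lower, and without CKD 2 it was 2 higher and 2 lower in AKI and 4 lower in CKD. Pax8 rose in AKI (1.45, adjusted p = 0.0176) but not without AKI 1 (1.10, adjusted p = 0.623) or AKI 2 (1.62, adjusted p = 0.0593), and proximal tubule cells of the same libraries held 0.672 to 1.31 per 10000. Emx1, a homeobox gene chosen after its values were seen, ranged from 1.27 to 2.23 per 10000 over the DCT cells of the 5 libraries and from 0 to 0.0852 over their TAL cells. Emx1, which the rule did not use, was thus higher in DCT than in TAL cells of every library. Ppargc1a, a coactivator of mitochondrial biogenesis, stood at 2.72, then 1.35 and 1.40, then 1.33 and 2.15 (AKI -0.99, adjusted p = 0.0738).

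Several tubular injury genes rose. Of 28 tested, 11 rose in AKI (background 3.82% higher) and 9 in CKD (background 2.8% higher), none fell, and the medians were 1.5 and 1.04. Without AKI 1 the AKI count was 8 higher and 2 lower, and without CKD 1 the CKD count was 6 higher and 1 lower. Without CKD 2 the counts were 17 higher and 2 lower in AKI and 15 higher and 1 lower in CKD.

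Lcn2, an iron-carrier-binding protein known as an injury marker of the distal nephron, had 14 UMIs in the 460 control members (0.0426 per 10000). It stood at 16.2 and 16.6 per 10000 in AKI and 6.11 and 17.9 in CKD. Lcn2 rose by 8.56 on the log2 scale in AKI (SE 0.64, adjusted p = 5.67e-09) and by 8.08 in CKD (SE 0.64, adjusted p = 3.8e-08), and every injured library lay far above the control. In CKD 2, 261 of its 275 UMIs came from 1 cell. In T lymphocytes Lcn2 stood at 0.0636 in the control, where proximal tubule cells held 0.118, and 0.235 to 1.84 in the injured libraries. Spp1, the secreted matrix protein osteopontin, chosen after its values were seen, stood at 10.8 per 10000 in the control, 253 and 292 in AKI and 164 and 162 in CKD. Spp1 rose by 4.67 in AKI (SE 0.35, adjusted p = 5.67e-09) and 3.94 in CKD (SE 0.34, adjusted p = 8.51e-08), with the CKD pair between the control and the AKI pair. Every one of the 80, 44, 193 and 19 injured members had a UMI of Spp1, as did 386 of 460 control members. Its level in T lymphocytes was 5.18 in the control and 4.91 to 24.6 in the others, so cells that should lack it also held Spp1 UMIs, and control proximal tubule cells held 11.

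Clu, the chaperone clusterin, stood at 10.8 per 10000 in the control, 84.7 and 97.2 in AKI and 31 and 32.7 in CKD. Clu rose by 3.09 in AKI (SE 0.33, adjusted p = 1.29e-06) and 1.58 in CKD (SE 0.31, adjusted p = 0.00218), and the 3 groups did not overlap. With the mitochondrial limit at 15% the CKD values of Clu (1.94, adjusted p = 0.0707) and Krt8 (1.31, adjusted p = 0.441) were not called. Krt8, a simple epithelial keratin, stood at 1.53, then 14.1 and 15.9, then 4.18 and 5.09. Krt8 rose by 3.30 in AKI (SE 0.36, adjusted p = 1.43e-06) and 1.61 in CKD (SE 0.33, adjusted p = 0.00437), in the same order of groups as Clu, and proximal tubule cells of the control held 2.77 per 10000. Krt18, its partner keratin, stood at 1.02, then 3.93 and 2.13, then 0.784 and 2.74, with proximal tubule cells at 1.45 in the control and 1.03 in CKD 1. Krt18 rose in AKI (1.57, adjusted p = 0.037), a call that rested on AKI 1 (without it 1.10, not called). Vim, a mesenchymal and leukocyte filament, stood at 0.387 in the control, 0.175 and 0.125 in AKI, 4.30 in CKD 1 and 0.261 in CKD 2, while T lymphocytes held 2.92 per 10000 in the control and 7.34 to 10.0 in the AKI and CKD 2 libraries. The CKD call of Vim (2.84, adjusted p = 0.00818) came from CKD 1, whose DCT members held the most leukocyte transcripts. Without CKD 1 the value of Vim was -0.55.

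**Figure D3:**
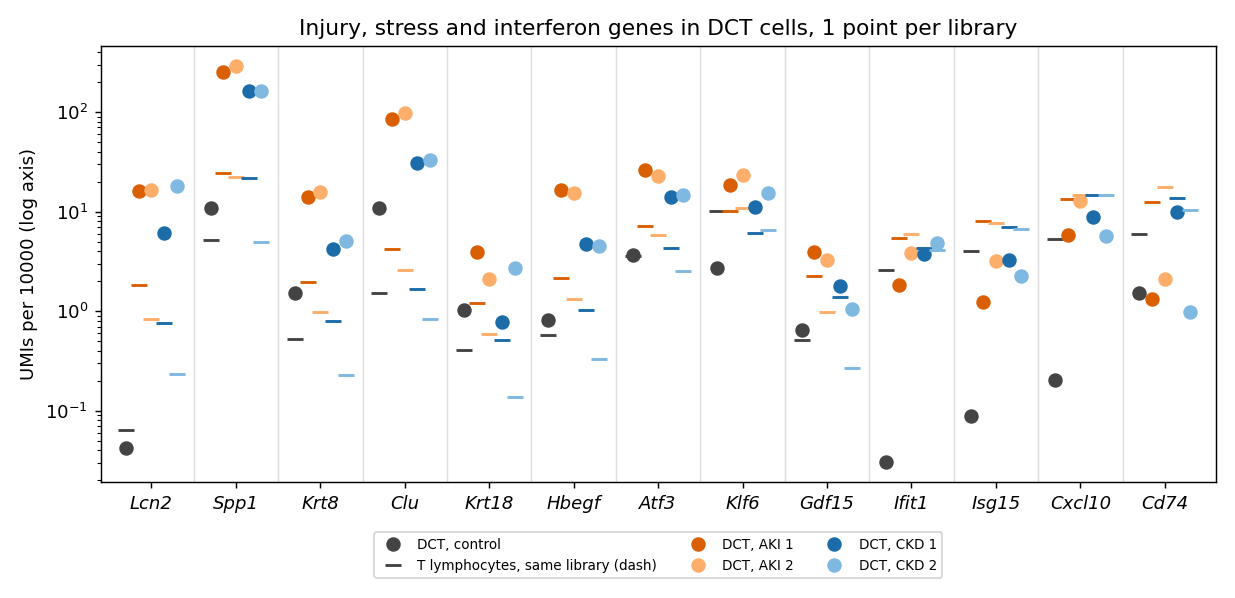
UMIs per 10000 (log axis) of 13 injury, stress and interferon genes in the DCT cells of each library, 1 point per library, with a dash for T lymphocytes of the same library. Lcn2 of the control lies at 0.0426, below the 0.0636 of its T lymphocytes, with the DCT cells of the injured libraries between 6.11 and 17.9. The Ifit1, Isg15 and Cxcl10 levels of T lymphocytes in the control also lie above those of its DCT cells.

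Some genes for secreted signals also rose. Of the 24 adhesion, matrix and signalling genes tested, 9 rose in AKI (background 3.82% higher) and 7 in CKD (background 2.8% higher), with medians of 0.87 and 0.67. Without AKI 1 the AKI count was 6, and without CKD 1 the CKD count was 3. Hbegf, a ligand of the EGF receptor, stood at 0.816 per 10000 in the control, 16.6 and 15.3 in AKI and 4.73 and 4.5 in CKD. Hbegf rose by 4.29 in AKI (SE 0.37, adjusted p = 5.15e-08) and 2.53 in CKD (SE 0.34, adjusted p = 5.04e-05), so that in the sums of all 4 injured libraries this ligand stood above the control and Egf below it. Proximal tubule cells held 2.26 per 10000 of Hbegf in the control and 5.04 in CKD 2. Cx3cl1, the chemokine fractalkine, stood at 0.213, then 1.22 and 0.951, then 0.424 and 0.326. It rose in AKI (2.35, SE 0.35, adjusted p = 8.03e-05), and its CKD value was 0.96 (adjusted p = 0.214). Pdgfa, a ligand for receptors on fibroblasts and pericytes, stood at 0.335, then 1.59 and 1.13, then 0.526 and 0.196, and rose in AKI (2.03, SE 0.37, adjusted p = 0.000699), while in CKD its value was 0.47 (adjusted p = 0.702), with proximal tubule cells of CKD 2 at 0.409.

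Of 26 immediate early and heat shock genes, 17 rose in AKI (background 3.82% higher), 13 rose in CKD (background 2.8% higher) and none fell, with medians of 1.5 and 1.31. Atf3, a stress transcription factor, stood at 3.70 per 10000 in the control, 26.3 and 23.1 in AKI and 13.9 and 14.8 in CKD. Atf3 rose by 2.74 in AKI (SE 0.33, adjusted p = 5.57e-06) and 1.98 in CKD (SE 0.32, adjusted p = 0.00033), and control proximal tubule cells held 3.95. Klf6, a zinc finger factor of epithelial injury, stood at 2.72, then 18.7 and 23.5, then 11.2 and 15.3, with T lymphocytes at 10.1 and proximal tubule cells at 3.35 in the control. Klf6 rose by 2.97 in AKI (SE 0.36, adjusted p = 5.6e-06) and 2.29 in CKD (SE 0.35, adjusted p = 0.000191), with the AKI pair above the CKD pair. Klf4, another family member, stood at 0.716, then 9.55 and 7.86, then 2.82 and 7.17, with T lymphocytes and proximal tubule cells of the control at 1.61 and 1.63 and proximal tubule cells of CKD 1 at 3.07, and it rose in AKI (3.60, SE 0.45, adjusted p = 8.06e-06) and CKD (2.74, SE 0.43, adjusted p = 0.000299). Fosb, an AP-1 subunit, stood at 3.96, then 17.3 and 14.5, then 6.27 and 17.4, with T lymphocytes at 5.91 and proximal tubule cells at 5.0 in the control. Fosb rose in AKI (2.00, adjusted p = 0.00287), whereas its CKD call (1.55, adjusted p = 0.0307) was lost without CKD 2 (0.71, adjusted p = 0.0612). Hspb1, a small heat shock protein, stood at 1.14, then 5.27 and 8.23, then 2.97 and 1.37, with proximal tubule cells at 2.26 in the control, 3.96 in CKD 1 and 5.17 in CKD 2 and T lymphocytes of CKD 1 at 3.05, and rose in AKI (2.57, SE 0.42, adjusted p = 0.000285). With the mitochondrial limit at 15%, which left 148 control members, 3 of the 26 were called in AKI and 0 in CKD. These genes can also respond to tissue digestion, which was not tested.

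Of 22 p53 response genes tested, Cdkn1a, Gdf15, Plk2, Bbc3 and Btg2 rose in AKI (background 3.82% higher) and 6 rose in CKD (background 2.8% higher), with medians of 0.73 and 0.89. The CKD count was 1 without CKD 1, 3 without AKI 2 and 4 without AKI 1, and the AKI count was 8 higher and 1 lower without CKD 2. Plk2, Bbc3 and Btg2, at 0.0700, 0.0487 and 7.79 per 10000 in the control, stood higher in its T lymphocytes, at 0.292, 0.287 and 10.4. Gdf15, a stress cytokine, stood at 0.643 per 10000 in the control, 3.97 and 3.25 in AKI and 1.81 and 1.04 in CKD, and at 1.85 in control and 4.83 to 7.16 in injured proximal tubule cells. Gdf15 rose in AKI (2.49, SE 0.37, adjusted p = 9.29e-05), and its CKD call (1.29, adjusted p = 0.0485) was lost without AKI 1 (1.23, adjusted p = 0.133), AKI 2 (1.26, adjusted p = 0.14) or CKD 1 (0.71, adjusted p = 0.479). The DCT level of Gdf15 lay below the proximal tubule level of its library in all 5. Cdkn1a, the cell cycle inhibitor p21, stood at 0.286, then 2.78 and 0.901, then 1.5 and 0.783, at 0.346 in control and 2.96 to 4.59 in injured proximal tubule cells, and at 0.506 to 2.28 in T lymphocytes. Cdkn1a rose in AKI (2.71, SE 0.48, adjusted p = 0.000503) and in CKD (2.17, adjusted p = 0.00723), and the CKD call was lost without CKD 1 (1.46, adjusted p = 0.353).

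Interferon response genes were low in control DCT cells, with a median of 0.0883 per 10000 over the 29 listed, and several were higher after AAI. All 29 stood higher in T lymphocytes than in DCT cells of the control, and 28, 25, 24 and 18 did in AKI 1, AKI 2, CKD 1 and CKD 2. Of 28 tested, 9 rose in AKI (background 3.82% higher) and 14 in CKD (background 2.8% higher) and none fell, with medians of 0.99 and 2.07. Leaving out AKI 2 lowered the AKI count to 4, leaving out CKD 1 lowered the CKD count to 6, and the 15% mitochondrial limit left 2 and 4. To show what these genes share, the 250 bases before each RefSeq start (GRCm38.p6, 32851 promoters of 27025 genes) were searched on both strands for GAAA followed by any 2 bases and GAAA, the core of the interferon-stimulated response element. The motif was in the promoters of 13 of 24 interferon genes with a promoter (54.2%), against 936 of 27025 genes in all (3.46%). The stretches of the 5 interferon genes described below that hold it are given 5′ to 3′ on the strand of the gene, with matches in capitals.
Ifit1, chr19:34640765-34640833, plus strand: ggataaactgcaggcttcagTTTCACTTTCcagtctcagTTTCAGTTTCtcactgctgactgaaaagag
Ifit3, chr19:34583353-34583436, plus strand: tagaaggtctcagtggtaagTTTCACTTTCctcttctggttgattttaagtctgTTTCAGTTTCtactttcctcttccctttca
Isg15, chr4:156200855-156200916, minus strand: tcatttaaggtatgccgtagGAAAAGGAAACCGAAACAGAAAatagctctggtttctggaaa
Rsad2, chr12:26456543-26456592, minus strand: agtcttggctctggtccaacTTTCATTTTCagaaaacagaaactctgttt
Cxcl10, chr5:92349073-92349122, minus strand: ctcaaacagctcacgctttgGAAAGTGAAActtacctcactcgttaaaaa

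Ifit1 and Ifit3 each hold 2 matches, Isg15 holds 3 that overlap, and the first match lies 78 to 213 bases before the start of the 5 genes. The motif was in 7 of the 8 interferon genes called in AKI that had a promoter (87.5%) and in 6 of the 16 not called (37.5%). In CKD it was in 7 of 11 called (63.6%) and 6 of 13 not called (46.2%). It was in 3 of 14 MHC class I genes (21.4%), 1 of 20 injury genes (5%) and 1 of 11 genes of the NaCl list (9.09%). These matches are letters in a window and were not tested as sites.

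Ifit1, an RNA-binding antiviral protein, had 10 UMIs in the control (0.0305 per 10000) and stood at 1.85 and 3.88 in AKI and 3.74 and 4.83 in CKD. Ifit1 rose by 6.50 in AKI (SE 0.58, adjusted p = 7.59e-08) and 7.08 in CKD (SE 0.59, adjusted p = 6.61e-08). Few cells carried it, with UMIs in 7, 19, 6, 63 and 5 members (control, AKI 1, AKI 2, CKD 1, CKD 2), and 1 cell held 90 of 169 UMIs in AKI 1 and 121 of 155 in AKI 2. T lymphocytes held 2.57 per 10000 of Ifit1 in the control and 4.10 to 5.95 in the others. Isg15, the ubiquitin-like modifier, stood at 0.0883, then 1.24 and 3.18, then 3.28 and 2.28, with T lymphocytes at 4.05 in the control and 6.73 to 8.11 in the others. Isg15 rose by 4.61 in AKI (SE 0.55, adjusted p = 5.22e-06) and 5.04 in CKD (SE 0.56, adjusted p = 4.87e-06), and the AKI call was lost at the 15% mitochondrial limit (1.31, adjusted p = 0.378). Cxcl10, a T cell chemokine, stood at 0.204, then 5.82 and 12.9, then 8.89 and 5.74, with T lymphocytes at 5.34 in the control and 13.3 to 14.8 in the others, and rose by 5.53 in AKI (SE 0.54, adjusted p = 3.15e-07) and 5.21 in CKD (SE 0.53, adjusted p = 1.16e-06). For Isg15 and Cxcl10, T lymphocytes held more than DCT cells in every library.

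The AKI calls of Ifit3 and Rsad2 rested on AKI 2. Ifit3 stood at 0.067 per 10000 in the control, 0.121 and 0.551 in AKI and 0.885 and 1.24 in CKD, with T lymphocytes at 0.407 to 0.978. Ifit3 rose in CKD (3.89, SE 0.55, adjusted p = 9.1e-05), while its AKI call (2.03, adjusted p = 0.0418) was lost without AKI 2 (0.77, adjusted p = 0.97). Rsad2, the antiviral enzyme viperin, stood at 0.311, then 0.449 and 5.78, then 0.507 and 2.54, so that AKI 2 stood apart, and T lymphocytes stood at 0.573 in the control, 1.23 in AKI 1 and 0.963 in CKD 1. Its AKI call (3.32, adjusted p = 0.0213) was lost without AKI 2 (0.47, adjusted p = 0.999).

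Of 16 MHC class I and immunoproteasome genes, 6 rose in AKI (background 3.82% higher) and 9 in CKD (background 2.8% higher), with medians of 1.5 and 1.74. The AKI count was 3 without AKI 2, the CKD count 4 without CKD 1, and the 15% mitochondrial limit left 0 and 1. The AKI count was 10 without CKD 2. H2-K1, a classical class I heavy chain, stood at 2.20 per 10000 in the control, 6.63 and 7.06 in AKI and 7.08 and 7.56 in CKD, with T lymphocytes at 14.3 to 19.5 and proximal tubule cells at 2.59 to 17.4. H2-K1 rose by 1.64 in AKI (SE 0.33, adjusted p = 0.00187) and 1.75 in CKD (SE 0.33, adjusted p = 0.00177), and the 4 injured libraries lay close together. At the 15% mitochondrial limit its values were 0.81 (adjusted p = 0.677) and 0.79 (adjusted p = 0.866). Psmb8, an immunoproteasome subunit, stood at 0.137, then 0.668 and 0.876, then 1.6 and 0.783, with T lymphocytes at 3.71 to 6.64 and proximal tubule cells at 0.279 to 2.02. Psmb8 rose by 2.45 in AKI (SE 0.42, adjusted p = 0.000456) and 3.31 in CKD (SE 0.43, adjusted p = 2.78e-05). B2m, the class I light chain, stood at 1.66, then 2.92 and 3.40, then 6.58 and 3.06, with T lymphocytes at 20.4 to 27.3 and proximal tubule cells at 3.58 to 17.7, and its CKD call (1.63, adjusted p = 0.0144) was lost without CKD 1 (0.90, adjusted p = 0.195).

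The class II genes followed CKD 1. Of 6 tested, none was called in AKI, and H2-Aa, H2-DMa and H2-DMb1 rose in CKD (background 2.8% higher). All 7 listed class II genes stood higher in T lymphocytes than in DCT cells of every library. Cd74, the invariant chain of antigen-presenting cells, stood at 1.54 per 10000 in the control, 1.33 and 2.10 in AKI, 10.0 in CKD 1 and 0.978 in CKD 2, with T lymphocytes at 5.99 to 17.6 and proximal tubule barcodes at 2.99 to 31.4. Without CKD 1, none of the 4 class II genes then tested was called, and the value of H2-Aa was -0.72 (adjusted p = 0.675). The macrophage transcripts of CKD 1 members, 17.7 per 10000, moved with these genes, and their part was not tested.

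A minority of respiratory chain genes fell in AKI, where the background was 2.49% lower. Of 76 nuclear-encoded genes, 10 fell in AKI and 0 were called in CKD against control, with medians of -0.75 and -0.15, and the AKI count was 1 without AKI 1, 0 without AKI 2, 53 without CKD 1 and 57 without CKD 2. With the mitochondrial limit at 15% none of the 76 was called in AKI. The 13 mitochondrially encoded genes, whose share the rule bounded, had medians of -0.87 and -0.53, which are a description. Atp5k, a subunit of ATP synthase, stood at 12.8 per 10000 in the control, 5.51 and 5.11 in AKI and 7.21 and 8.67 in CKD. Atp5k fell in AKI (-1.27, SE 0.29, adjusted p = 0.00622), a call lost without AKI 1 (adjusted p = 0.053) or AKI 2 (adjusted p = 0.0805) at log2 values of -1.28 in both, and proximal tubule cells of the AKI libraries held 6.19 and 5.29. Cycs, cytochrome c, stood at 9.38, then 4.68 and 4.78, then 8.25 and 6.65 (AKI -0.98, adjusted p = 0.0478, lost without AKI 1 at -0.93, adjusted p = 0.329, or AKI 2 at -1.07, adjusted p = 0.248), with proximal tubule cells at 7.41 to 9.38. Atp5g1, another ATP synthase subunit, did not pass in AKI (-0.82, adjusted p = 0.1), with 15 in the control, 8.11 and 8.89 in AKI and 15.6 and 17 in CKD, and 9.22 in proximal tubule cells of AKI 1. For Atp5g1 the CKD libraries were at the control level and the AKI libraries below it.

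Fatty acid oxidation and glycolysis each had 1 call in AKI, the former 8 without CKD 1 and 9 without CKD 2. Echs1, an enzyme of mitochondrial beta-oxidation, stood at 2.71 per 10000 in the control, 1.47 and 1.03 in AKI and 1.72 and 1.5 in CKD, and fell in AKI as 1 of 18 genes (-1.10, adjusted p = 0.0345), with the call lost without AKI 1 (-1.35, adjusted p = 0.158) or AKI 2 (-0.95, adjusted p = 0.525). Eno1, enolase of glycolysis, stood at 2.18, then 0.953 and 1.03, then 1.93 and 1.5, and fell in AKI as 1 of 15 genes (-1.15, adjusted p = 0.0307), also lost without AKI 1 (-1.04, adjusted p = 0.411) or AKI 2 (-1.26, adjusted p = 0.219), and T lymphocytes of the AKI libraries held 1.23 and 1.47 and their proximal tubule cells 1.66 and 1.97. No gene of either list was called in CKD against control, and the background in AKI was 2.49% lower. Of 15 cell cycle genes tested, Ccnd1 fell in AKI, none rose in AKI, and 6 rose in CKD (background 2.8% higher). Ccnd1, the G1 cyclin, stood at 3.41 in the control, 0.811 and 0.501 in AKI and 2.09 in both CKD libraries. Ccnd1 fell by 2.34 in AKI (SE 0.33, adjusted p = 3.3e-05) and not in CKD (-0.68, adjusted p = 0.343), and proximal tubule cells of the same libraries held 1.51 to 2.33. Proliferation transcripts came from CKD 1, where Top2a, a topoisomerase of dividing cells, had 36 UMIs against 5 in the control, 2 and 0 in AKI and 0 in CKD 2, with T lymphocytes at 0.712 to 2.26 per 10000. Without CKD 1 none of the 5 cell cycle genes then tested was called in CKD.

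**Figure D4:**
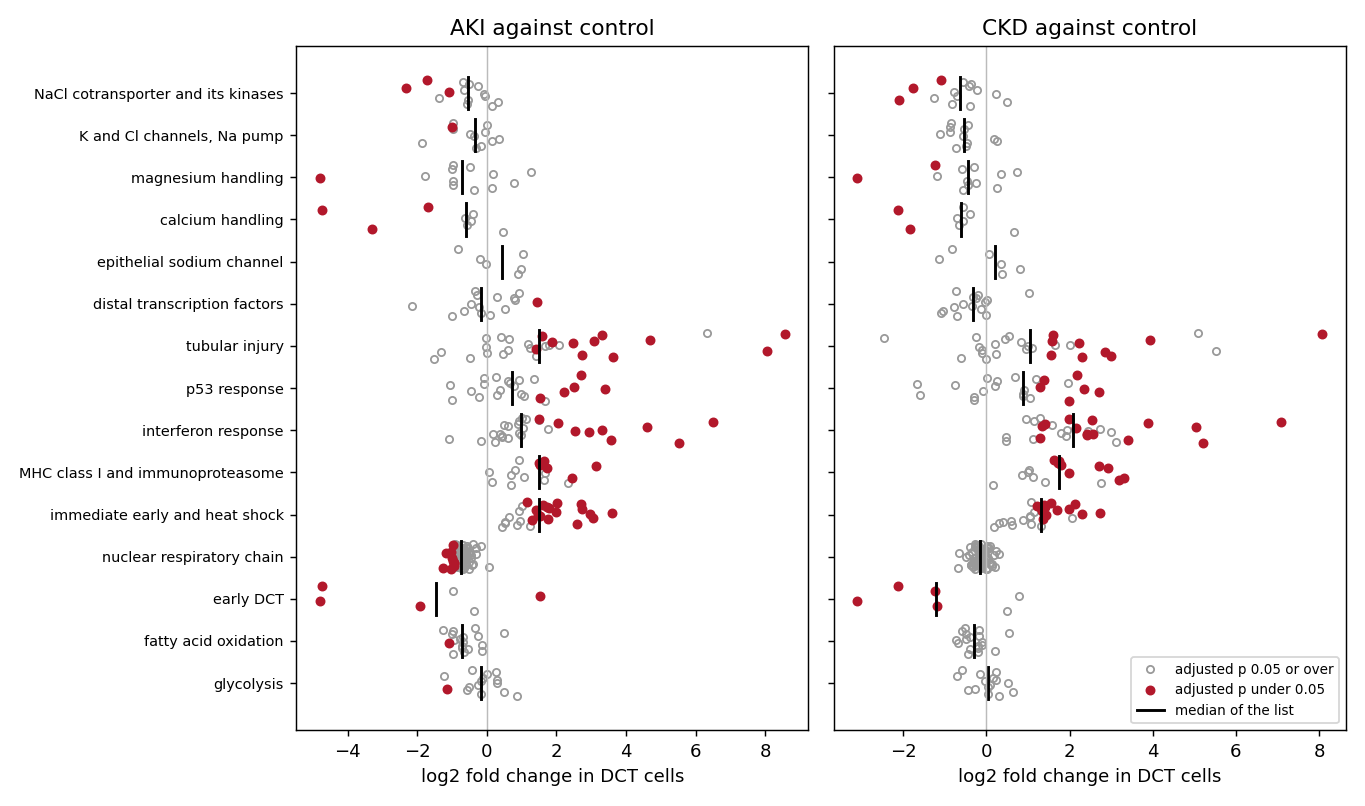
Log2 fold changes in DCT cells of the genes of 15 lists, AKI against control on one panel and CKD against control on the other, with genes of adjusted p under 0.05 as red points and the median of each list as a bar. Injury, immediate early and interferon lists lie mostly above 0, and the NaCl and early DCT lists have medians below 0 in both panels.

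Cells differed within each library, which was examined after thinning every member to 1000 UMIs, leaving 398, 68, 41, 193 and 16 cells. Pvalb was then found in 32.4% of control members (exact 95% interval 27.8 to 37.3%), 2.94% (0.358 to 10.2%) and 2.44% (0.0617 to 12.9%) in AKI, 10.4% (6.45 to 15.6%) in CKD 1 and 6.25% (0.158 to 30.2%) in CKD 2. Before thinning the shares were 54.1%, 3.75%, 4.55%, 15.5% and 15.8%. T lymphocytes, as a measure of free RNA, gave 2.43% in the control and 0.0158% to 0.198% in the others for Pvalb. Egf was found in 80.7% (76.4 to 84.4%) of control members, 5.88% (1.63 to 14.4%) and 4.88% (0.596 to 16.5%) in AKI, 23.8% (18 to 30.5%) in CKD 1 and 31.2% (11 to 58.7%) in CKD 2, where the unthinned shares were 91.7%, 37.5%, 25%, 46.1% and 47.4%. The T lymphocyte share of Egf was 34.4% in the control and 0.252% to 4.04% in the others. Klhl3 was found in 41.7% (36.8 to 46.7%) of control members, 7.35% and 9.76% in AKI, 9.84% in CKD 1 and 31.2% (11 to 58.7%) in CKD 2, and Kl in 50.8%, 11.8%, 9.76%, 18.7% and 25%. For Klhl3 the 16 thinned members of CKD 2 left an interval too wide to set it apart from the control.

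Injury genes were spread differently. Spp1 was found in 55% (49.99 to 59.98%) of control members and in 95.6%, 100%, 99.5% and 93.8% of AKI 1, AKI 2, CKD 1 and CKD 2 members, with median UMIs of 1, 8, 11, 10 and 4.5 per cell of 1000. The T lymphocyte shares of Spp1 were 25.6%, 56.1%, 59.3%, 63% and 15.7%. Lcn2 was found in 2 of 398 control members (0.503%), 32.4% (21.5 to 44.8%) and 36.6% (22.1 to 53.1%) in AKI, 19.2% (13.9 to 25.4%) in CKD 1 and 12.5% (1.55 to 38.3%) in CKD 2, above T lymphocyte shares of 0.26% to 5.0%. Thus Spp1 was in almost every injured member and Lcn2 in a minority. Each thinned cell with Lcn2 in the 4 injured libraries also had Spp1. Only 3, 0, 1 and 1 thinned cells (AKI 1, AKI 2, CKD 1, CKD 2) lacked Spp1, so this overlap says little about how both genes relate. Krt8 was found in 12.3%, 50%, 56.1%, 20.2% and 43.8%, and Clu in 41.5%, 77.9%, 87.8%, 65.3% and 62.5%, both above the T lymphocyte share in every library. Unthinned, Lcn2 was in 1.74%, 42.5%, 47.7%, 34.2% and 21.1% of members.

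**Figure D5:**
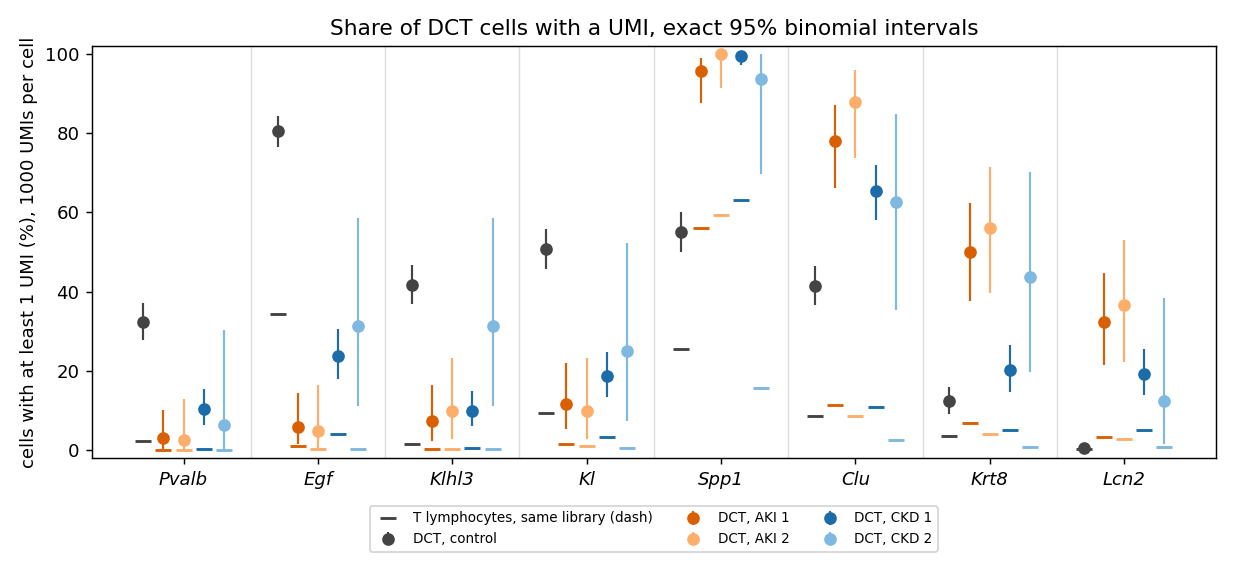
Percent of DCT cells with at least 1 UMI of 8 genes after thinning each cell to 1000 UMIs, by library, with exact 95% intervals and a dash for T lymphocytes of the same library. Pvalb and Egf of the control, at 32.4% and 80.7%, lie above both AKI libraries and CKD 1, and Spp1 lies above 90% in the 4 injured libraries.

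Pairs of genes within cells were described without a test. In the control, 62% of the 129 thinned cells with Pvalb and 56.9% of the 269 without it had Calb1, and 27.9% and 43.1% had Slc8a1, whose level the rule bounded. Egf was in 89.9% of control cells with Pvalb and 76.2% of those without. In CKD 1, Egf was in 11 of 20 cells with Pvalb (55%) and 35 of 173 without (20.2%). Egf was thus the more frequent in cells with Pvalb in both libraries. Krt18 was in 45.5% of the 22 Lcn2 cells and 17.4% of the 46 others in AKI 1, in 3 of 15 and 1 of 26 in AKI 2, and in 2.70% and 4.49% in CKD 1.

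To follow the step from AKI to CKD, AKI 1 and AKI 2 were set against CKD 1, the lone CKD library being assumed to vary like the AKI pair. The background for the lists in this comparison, given above, was 3.64% higher and 2.06% lower. Among the transport lists, Egf, Pvalb, Kl and Calb1 were higher in CKD 1. Egf rose by 1.77 (SE 0.25, adjusted p = 2.31e-10), Pvalb by 3.11 (SE 0.30, adjusted p = 2e-22) and Kl by 1.27 (SE 0.26, adjusted p = 4.97e-05) on the log2 scale. With CKD 2 included these 3 were still called, at 1.74 (adjusted p = 0.0315), 2.66 (adjusted p = 0.0417) and 1.52 (adjusted p = 0.037). Pvalb rested on CKD 1, since CKD 2 lay between the AKI libraries, and in a fit of all 5 libraries without CKD 1 its value was 0.24 (adjusted p = 0.952). In such fits Egf was not called without CKD 1 (1.5, adjusted p = 0.0691) or AKI 2 (1.24, adjusted p = 0.122), nor Kl without AKI 2 (1.16, adjusted p = 0.301). By DESeq2 Pvalb was called and Egf (1.87, adjusted p = 1.00) and Kl (1.32, adjusted p = 0.457) were not. Levels in CKD stayed below the control for each, as the values above show. Calb1 (0.69, adjusted p = 0.0382, with CKD 2 1.18, adjusted p = 0.088) and Slc16a7 (0.84, adjusted p = 0.0197, with CKD 2 0.78, adjusted p = 0.225) were not called with CKD 2, and neither was Umod (0.98, adjusted p = 0.000107, with CKD 2 0.92, adjusted p = 0.185). Wnk1 (0.45, adjusted p = 0.265), Klhl3 (0.34, adjusted p = 0.602) and Trpm6 (-0.17, adjusted p = 0.843) were not called. S100g (-1.11, adjusted p = 5.16e-05) was at 0.07 (adjusted p = 0.976) with CKD 2, and Hsd11b2 (-1.23, adjusted p = 0.00144), Scnn1b (-1.07, adjusted p = 0.0116), Tmprss2 (-0.94, adjusted p = 0.0208), Pax8 (-1.50, adjusted p = 0.00434) and Pou3f3 (-0.93, adjusted p = 0.0252) were all lost with it.

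Of the 28 injury genes, 10 fell (background 2.06% lower) and 3, Vim, Cd44 and Timp2, rose in CKD 1 against AKI, with a median of -0.65 against -0.030 over all genes. With CKD 2 included, 2 of 23 tested fell and 1 rose, and Cd44 and Timp2 were not among those tested. Krt8 (-1.82, SE 0.24, adjusted p = 1.34e-11), Clu (-1.54, SE 0.23, adjusted p = 1.81e-09) and Hbegf (-1.73, SE 0.24, adjusted p = 1.27e-10) were called also with CKD 2, at -1.65 (adjusted p = 0.0108), -1.46 (adjusted p = 0.0188) and -1.72 (adjusted p = 0.0088). Spp1 (-0.71, SE 0.21, adjusted p = 0.0193) and Lcn2 (-1.40, adjusted p = 2.62e-07) were at -0.69 (adjusted p = 0.305) and -0.42 (adjusted p = 0.747) with CKD 2, whose Lcn2 UMIs came almost wholly from 1 cell. Of the 26 immediate early and heat shock genes, 11 fell and none rose (median -0.55), whereas with CKD 2 none of the 26 was called (median -0.30). Of the 76 nuclear respiratory chain genes, 18 rose and none fell (median 0.60), among them Atp5g1 (0.90, adjusted p = 0.00136, with CKD 2 1.00, adjusted p = 0.0864). With CKD 2, or without members with markers of other cells, none of these 76 was called, and 2 were at the 15% mitochondrial limit. Ccnd1 rose by 1.66 (adjusted p = 1.74e-07), and with CKD 2 by 1.70 (adjusted p = 0.0174), but was not called in the fit of all 5 libraries without AKI 2 (1.46, adjusted p = 0.133). The 28 interferon genes tested had a median of 0.70, and Ifit1, at 0.44, did not pass. With CKD 2, 0 of the 26 interferon genes tested were called (median 0.65). The medians were 0.42 for MHC class I and 2.45 for class II genes. With CKD 2 they were 0.30 and 1.74, with 0 called in either list. Cd74 (2.61, with CKD 2 1.86, adjusted p = 0.225) and Vim (4.81, with CKD 2 4.16, adjusted p = 0.0188) moved with the leukocyte transcripts of CKD 1 members. In the fit of all 5 libraries without CKD 1, Vim was at 0.76 (adjusted p = 0.799) and Cd74 at -0.75 (adjusted p = 0.551). Leaving out members with markers of other cells from every library left 97 of 193 in CKD 1, 60 of 80 in AKI 1 and 35 of 44 in AKI 2. The comparison then called 60 of 6627 genes tested.

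The DCT was compared with the TAL, the neighbouring segment, whose 1723 cells were taken by the mirrored rule on Slc12a1. The change from AKI to CKD differed between both segments for 1 of 9187 genes (0.0109%) in a model of 8 library sums with library as a block, with 575 genes at an unadjusted p under 0.05 and 0 by DESeq2. This model kept CKD 2, so the set minimum of 20 members was not applied to it. The count of calls changed on leaving out a library, as given at the end. The call was lost without CKD 1 (adjusted p = 0.772). That gene was Atp6v1g3, a proton pump subunit of intercalated cells, which stood at 1.81, 0.427, 0.225, 0.636 and 0.130 per 10000 in DCT cells (control, AKI 1, AKI 2, CKD 1, CKD 2), with 3.11 in T lymphocytes and 3.80 in proximal tubule cells of the control. For the change from control to AKI, a contrast added after the data were seen, 224 of 10477 genes (2.14%) differed, 145 (1.38%) with a higher and 79 (0.754%) with a lower change in DCT cells. Egf (-0.18, adjusted p = 0.97), Lcn2 (0.68, adjusted p = 0.781), Klhl3 (0.25, adjusted p = 0.97), Wnk1 (0.90, adjusted p = 0.102) and Kl (-0.67, adjusted p = 0.491) did not pass this test of the difference. Lcn2 in TAL cells stood at 0.117 per 10000 in the control, 29.4 and 26.2 in AKI and 16.1 and 23.6 in CKD.

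Genes whose change did differ included Hbegf, Krt8, Spp1 and Clu. Hbegf rose more in DCT cells, by 1.38 on the log2 scale (adjusted p = 0.000664), from a TAL level of 2.01 per 10000 in the control and 15.8 and 14.2 in AKI. Krt8 differed by 1.05 (adjusted p = 0.0297), with 1.51 in control TAL cells and 7.83 and 6.46 in AKI. Spp1 differed by 1.01 (adjusted p = 0.0152), with 27.7 in control TAL cells and 315 and 379 in AKI. For these 3 genes the AKI change was larger in DCT cells, while the AKI levels of Spp1 were higher in TAL cells. Clu rose less in DCT cells, by -1.04 (adjusted p = 0.0228), from 1.99 in control TAL cells to 19.7 and 59.2 in AKI. S100g differed by 2.29 (adjusted p = 1.82e-11), with 13.2 in control TAL cells and 2.34 and 1.69 in AKI, while its DCT levels of 28.7 and 31.6 in AKI were nearer the control's 40.2.

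The genes with the largest changes among those called whose libraries did not overlap (6.28%, 3.09% and 5.66% of genes tested in the 3 comparisons) were mostly carried by few cells. In AKI the 10 largest rises held Lcn2 and 9 genes with 0 to 2 UMIs in the control. Cxcl17, a mucosal chemokine, had 33 and 23 UMIs in AKI, 8 and 0 in CKD and 0 in the control, in 11 and 9 AKI cells. Fgg, the fibrinogen gamma chain, had 95 and 31 UMIs in AKI, 99 and 0 in CKD and 1 in the control, and Fga, the alpha chain, 40 and 2, then 33 and 0, then 0. Proximal tubule cells of the AKI libraries held 2.41 and 3.50 per 10000 of Fgg, against 1.04 and 0.776 in DCT cells, and 1.76 and 2.62 of Fga against 0.438 and 0.0501. Serpina3n, an acute phase protease inhibitor, had 147 and 13 UMIs in AKI, 35 and 2 in CKD and 2 in the control, and 87 of the 147 were in 1 cell. Gm8257, Hcar1, Mmp7, Ccl8 and Il1f6 made up the rest, of which Hcar1 had 30 of its 31 AKI UMIs in 1 cell and Ccl8, a monocyte chemokine, stood at 0.197 and 0.225 per 10000 in AKI against 2.92 and 3.72 over all kept barcodes. The 10 largest falls in AKI included Dcn, a fibroblast proteoglycan with 408 UMIs in 10 control cells, 260 of them in 1, and Col3a1, Sprr2a3, Myh11 and Upk3a, each mostly in 1 control cell. Perm1, a muscle and energy metabolism regulator, was spread more widely, with 68 UMIs over 53 control members, 0 in both AKI libraries, 3 in CKD 1 and 1 in CKD 2.

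In CKD against control the 10 largest rises held Lcn2, Ifit1, Gm8257 and Gm9732, and 6 genes that came mainly from CKD 1. Of these, Mmp9, a protease of myeloid cells and osteoclasts, had 101 UMIs in CKD 1 and 3 in CKD 2, Acp5, the phosphatase TRAP5 of osteoclasts and macrophages, 307 and 3, and Ctsk, the protease cathepsin K, 217 and 1. In CKD 1 members Mmp9 stood at 0.932 per 10000, Acp5 at 2.83 and Ctsk at 2.00. All kept barcodes of that library held more of each, at 3.31, 8.56 and 5.80, and so did its T lymphocytes, at 1.34, 3.80 and 2.21. Gm9732, a predicted gene, had 7 UMIs in the control, 218 and 105 in AKI and 117 and 25 in CKD, and rose by 5.85 (SE 0.52, adjusted p = 1.4e-07), with 0.034 to 0.15 per 10000 over all kept barcodes of a library. The 10 largest falls again included the fibroblast genes Col3a1, Col1a2 and Dcn, along with Kap, an androgen-regulated protein of the proximal tubule, which had 145 UMIs over 113 control members, 0 in AKI and 1 and 0 in CKD, and which stood at 4.04 per 10000 in control proximal tubule cells. The 10 largest rises in CKD 1 against AKI again included Mmp9 and Ctsk. With CKD 2, Mmp9 was still called (adjusted p = 0.0088) and Ctsk was not among the genes tested.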

How the data were processed

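Single-cell suspensions of kidney were run on the Chromium Single Cell 3′ v2 platform, and each of the 5 libraries has its own matrix. The deposited counts are whole UMIs per gene and barcode, made by the authors with Cell Ranger 7.2.0 and STAR on GRCm39 per the labels (the matrix headers name 5.0.0). From the 72896 deposited barcodes, 60043 passed the mitochondrial limit and gene minimum stated above, and the member rule was applied to these. No doublet caller or ambient RNA correction was run. Members with 2 or more UMIs of immune, endothelial or fibroblast and pericyte markers, or 5 or more of other tubule markers, were left out in an alternative. T lymphocytes of each library (1161 to 6565 barcodes) gauge free RNA only for genes they should lack. For genes they express, such as MHC class I genes, their level is not a measure of free RNA. Among them, 15, 11, 7, 37 and 6 barcodes (control, AKI 1, AKI 2, CKD 1, CKD 2) also met the Slc12a3 conditions. Whether these were doublets was not tested. Proximal tubule cells (207 to 1479) and TAL cells were taken by marker rules in the same way.

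UMIs were summed per library over members and tested with edgeR 4.0.16 (R 4.3.3; TMM, filterByExpr, glmQLFit and glmQLFTest, Benjamini-Hochberg adjustment over all genes tested). The comparison of CKD with AKI left out CKD 2, which had 19 members, and this followed the set minimum of 20. The comparison of DCT with TAL cells kept CKD 2. DESeq2 1.42.0, other normalization and filters, other member rules, thinning and leaving out each library were alternatives. Fold changes are log2 of normalized counts. Levels per 10000 are UMIs over all UMIs of the members and are not divided by gene length, so they are compared between libraries and not between genes. In simulated counts for AKI against control, 3.64%, 69.7% and 81.2% of genes changed 2-, 4- and 8-fold were found again, with 6 false calls over 9477 genes. For CKD against control it was 5.45%, 63.2% and 76.8% (4 false calls, 9404 genes). For CKD against AKI it was 10.7%, 70% and 85.1% (6 false calls, 8690 genes). These counts were drawn as library sums with the same spread beyond counting error for all genes (dispersion 0.0389 against control, 0.0213 for CKD against AKI). Genes whose UMIs lie mostly in a single cell were not imitated, so the false calls do not measure those among the real calls.

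The members and the 26 lists (449 genes) were chosen with earlier results of these data known. Genes were named as the 10 largest rises and falls of each comparison among called genes without overlap of the groups, all genes of the 5 transport lists, and at most 5 of each other list by smallest adjusted p. Spp1, Emx1, H2-DMa, Cd44 and Timp2 were chosen after their values were seen. Some genes of these lists are not reported here. Promoter sequences are from RefSeq (GRCm38.p6), matched by symbol. Python 3.11.15 with numpy 2.4.6, pandas 2.3.3, scipy 1.17.1 and matplotlib 3.10.9 was used for the rest.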

Additional observations from a re-analysis of the deposited data

Results flagged for a closer look

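The change between groups differed between DCT and TAL cells for 1 gene in CKD against AKI. Atp6v1g3 changed by -2.86 on the log2 scale (adjusted p = 0.0423) in DCT relative to TAL cells, with 0.0924 and 0.0107 per 10000 in TAL cells of the AKI libraries and 0.845 and 0.0628 in those of the CKD libraries, against 0.427, 0.225, 0.636 and 0.130 in DCT cells. The call rested on CKD 1, without which the value was -1.44 (adjusted p = 0.772), and by DESeq2 it was not called (-2.86, adjusted p = 1.00).

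In AKI against control, 22 of the 67 genes tested that the text names differed with at least 3 UMIs in each group of both cell types, 18 with the higher change in DCT cells and 4 with the lower. The text names genes chosen with results known, so this count is a description beside the 2.14% of all genes tested. This contrast used the lone control library and was run under no alternative setting. Among interferon genes the differences were 3.45 for Ifit1 (adjusted p = 8.67e-09), 2.67 for Cxcl10 (adjusted p = 1.19e-11), 2.17 for Rsad2 and 2.15 for Isg15. Of the Ifit1 UMIs in DCT cells, 1 cell held 90 of 169 in AKI 1 and 121 of 155 in AKI 2. Rsad2 was higher in DCT than TAL cells in AKI 2 (5.78 against 0.128 per 10000) and lower in AKI 1 (0.449 against 0.995). Among stress genes they were 2.21 for Plk2, 1.79 for Klf6, 1.75 for Klf4, 1.35 for Atf3, 1.26 for Btg2 and 1.2 for Fosb. Signals and keratin gave 1.55 for Cx3cl1, 1.38 for Hbegf, 1.28 for Pdgfa, 1.05 for Krt8 and 1.01 for Spp1. Transport and receptor genes gave 2.29 for S100g, 2.10 for Erbb4 and 1.96 for Scnn1b. The 4 with a lower change in DCT cells were Clu at -1.04, Cdkn1a at -1.39, Cnnm2 at -1.45 and Vim at -1.84.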

How the results depend on the processing

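Of 41 described genes called in AKI against control, 18 kept their call and direction under every alternative in which they were tested: Atf3, Calb1, Ccnd1, Cdkn1a, Clu, Cxcl10, Egf, Gdf15, Hbegf, Ifit1, Kl, Klf4, Klf6, Klhl3, Krt8, Lcn2, Slc16a7 and Spp1. In CKD against control 8 of 33 did, namely Cxcl10, Egf, Hbegf, Ifit1, Isg15, Lcn2, Psmb8 and Spp1, and in CKD against AKI 2 of 41, namely Hbegf and Krt8. Over all alternatives, 508 of 599, 383 of 469 and 443 of 744 values of called genes kept the call. Genes past the threshold in no fit are given no direction.

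The AKI count of 606 was 160 by DESeq2, 312 with the mitochondrial limit at 15% and 91 with cells thinned to at most 2000 UMIs, and 303 to 1349 on leaving out a library. The share of higher calls was 60.6%, and 47.1% at the 15% limit. The CKD count of 340 was 72, 123 and 86 under the same settings and 177 to 957 on leaving out a library. The CKD against AKI count of 507 was 48 by DESeq2, 272 at the 15% limit, 192 and 1060 under the stricter and looser member rule, 60 without members with markers of other cells, 217 over genes at least as high as in all kept barcodes, 337 thinned, 103 with all 5 libraries (33 to 481 on leaving out one) and 35 with CKD 2. A replicate block, for which CKD 2 was added, called 181, and the crossed numbering 45. The deviations of libraries with the same number had r = 0.056 over 6842 genes. With 2 pairs this cannot settle whether the numbers pair the libraries. The difference between DCT and TAL cells gave 2 genes by RLE, 0 by DESeq2, 25 without a filter, 9 to 57 on leaving out a library and 224 for AKI against control. The causes were not tested.

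Shares moved beyond their interval to 2.49%, 4.29%, 7.0%, 7.33% and 4.54% in the control (15% limit, stricter, looser, without Ptprc barcodes, thinned), 2.58% in AKI 1, 0.258% and 1.63% in AKI 2, 0.645%, 0.559%, 1.59%, 2.16% and 0.673% in CKD 1 and 1.29% in CKD 2.

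Reversed values in AKI against control were Hsd11b2 at 1.11 and Vim at 2.24 without members with markers of other cells, and Ifit3 at -0.89 at the 15% limit. In CKD against AKI they were Calb1 at -0.038 (15% limit), Hsd11b2 at 0.21 and S100g at 0.27 (without the 5% deepest members), S100g at 0.068 (with CKD 2), and Hsd11b2 at 0.092 and Slc16a7 at -0.0082 (thinned). With all 5 libraries but CKD 1 they were Cd74 at -0.75, H2-Aa at -1.06, B2m at -0.022, Lcn2 at 0.14, Fosb at 0.15, Tmprss2 at 0.050 and S100g at 0.66, and with all but AKI 2 S100g at 0.15 and Rsad2 at 1.58. In CKD against control they were Hsd11b2 at 0.33 without members with markers of other cells, and on leaving out a library H2-Aa ranged from -0.72 to 2.74, Plk2 from -6.09 to 2.69 and Vim from -0.55 to 3.52. With 44 and 19 members in AKI 2 and CKD 2, a gene at 0 in them may lie below what this depth detects.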
